A study of Mus musculus with 12 samples.

Results

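The B7 ligands are cell surface proteins that give T cells their second signal beside antigen. Their genes Cd80, Cd86, Cd274, Icosl and Pdcd1lg2 were examined in mouse LSK cells, the bone marrow fraction without lineage markers that carries SCA1 and cKIT and is enriched for blood stem and progenitor cells. The genes were chosen by a measured value, the irradiated minus untreated difference of Cd80, and they are 5 of the 22180 genes with a probe set. Each gene was taken by its exact symbol and had 1 probe set on the array. All 5 passed the limit on low brightness, and no value of theirs lay below it (log2 of 5.29) on any array. Because that difference was used for the choice, irradiation differences of the 5 genes are given as a description without a p-value, whereas genotype differences and the interaction were tested.

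Cells came from Nipa KO and Nipa WT mice aged over 20 months on a C57BL/6 background reached by at least 10 generations of backcrossing. NIPA is the protein of Zc3hc1, and the sources used here do not give the part of the gene that the KO lacks. Sorted cells of 3 mice made up each sample. They spent 30 min in culture with IL-3 and IL-6 (10 ng/ml each), SCF (50 ng/ml) and 30% serum. They then received 4 Gy or no treatment and were harvested after 3 h. The groups were irradiated KO, untreated KO, irradiated WT and untreated WT, with 3 Affymetrix arrays in each. All groups shared the sort, the cytokines and the culture. The labels do not say whether irradiated and untreated samples of a genotype came from the same pools, so p-values measure the spread between these arrays.

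CD80 and CD86 bind CD28, which drives T cell activation, and CTLA4, which restrains it. CD274 (PD-L1) and PDCD1LG2 (PD-L2) bind the inhibitory receptor PD-1, and ICOSL binds ICOS. Dendritic cells, macrophages and B cells are the cells best known for carrying these ligands, and inflammatory signals through NF-kB and interferons are known to raise several of them.

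Promoter windows of 300 bases, from 250 before to 50 after the start of the gene, were held by RefSeq (GRCm38.p6) for 4 of the 5 genes, Cd80, Cd274, Icosl and Pdcd1lg2. Those of Cd80, the gene that led to the choice, and of Icosl and Pdcd1lg2, which hold NF-kB consensus matches, are shown 5′ to 3′ on the plus strand. They lie at chr16:38458683-38458982, chr10:78069118-78069417 and chr19:29410669-29410968. Capitals mark a match to TATAAA on the opposite strand in Cd80 and NF-kB consensus matches in the others.
Cd80: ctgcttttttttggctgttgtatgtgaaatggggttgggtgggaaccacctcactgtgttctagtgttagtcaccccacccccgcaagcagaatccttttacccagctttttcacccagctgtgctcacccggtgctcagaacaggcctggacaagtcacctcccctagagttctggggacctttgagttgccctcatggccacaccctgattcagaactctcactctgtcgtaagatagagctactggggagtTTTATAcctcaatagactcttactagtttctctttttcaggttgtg
Icosl: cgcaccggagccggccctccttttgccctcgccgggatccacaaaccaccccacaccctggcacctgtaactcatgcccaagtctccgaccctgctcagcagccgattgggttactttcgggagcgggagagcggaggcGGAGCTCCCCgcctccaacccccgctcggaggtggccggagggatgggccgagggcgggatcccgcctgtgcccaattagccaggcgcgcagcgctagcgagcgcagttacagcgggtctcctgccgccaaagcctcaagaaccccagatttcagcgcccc
Pdcd1lg2: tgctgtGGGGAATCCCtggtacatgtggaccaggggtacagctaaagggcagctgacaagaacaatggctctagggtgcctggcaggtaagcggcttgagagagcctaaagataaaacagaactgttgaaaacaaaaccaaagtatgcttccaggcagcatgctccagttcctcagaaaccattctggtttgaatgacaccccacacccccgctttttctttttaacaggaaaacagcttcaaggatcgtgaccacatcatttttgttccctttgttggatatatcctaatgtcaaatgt

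Both strands were searched for the p53 half-site consensus, the NF-kB consensus, TTCNNNGAA (an interferon gamma-activated site), the core of the interferon-stimulated response element and TATAAA. The window of Pdcd1lg2 held GGGGAATCCC from base -244, which fits the NF-kB consensus on both strands, and that of Icosl held GGAGCTCCCC from base -111, which fits it on the opposite strand. In Cd80 the TATAAA match on the opposite strand began at base 5 after the start and was the only match. The window of Cd274 held none of the 5 motifs. Of 27025 windows of this length, 8.37% held a p53 half-site, 8.18% an NF-kB match, 8.47% TTCNNNGAA, 3.49% the response element core and 14.2% TATAAA. The Icosl window was the richest in G and C at 68%, with 26 CpG pairs, against a median of 52.7% and 7 over all windows. Those of Cd80 and Pdcd1lg2 held 3 CpG pairs each, with 49.7% and 46% G and C, and that of Cd274 held 15 with 52.7%. A match is a stretch of letters and does not show that a factor binds there.

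Before the ligands, 2 facts of the arrays bear on them. Zc3hc1 lay between 5.61 and 5.82 on the 6 KO arrays and between 7.67 and 8.47 on the 6 WT arrays (log2). Among genes of the sort, Kit, the gene of cKIT, averaged 10.59 ± 0.44 in irradiated and 11.02 ± 0.28 in untreated KO cells and 10.46 ± 0.68 in irradiated and 11.05 ± 0.23 in untreated WT cells (SD, n = 3 each), while Ly6a, the gene of SCA1, was not analysed here. Of the lineage genes, Cd3e, Cd4, Cd8a, Ms4a1 and Ly6g were above the brightness limit on fewer than 3 arrays, and so were the NK cell genes Ncr1 and Klrb1c. Cd3d and Cd3g passed the limit but lay near it, at 5.20 to 5.75 and at 4.25 to 5.66 over the 12 arrays. Cd3g was above the limit only on irradiated KO arrays 2 and 3 and untreated KO array 2. Itgam, the gene of the lineage marker CD11b, also passed and lay between 7.39 and 8.66 over the 12 arrays.

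Monocyte markers stood apart on the KO arrays numbered 1. The mean log2 level of the 8 tested monocyte and macrophage markers (of 9 listed) was 8.33 on irradiated KO array 1, against 7.13 and 7.35 on arrays 2 and 3, and 8.17 on untreated KO array 1, against 7.43 and 7.16. On the WT arrays it lay between 7.28 and 7.47 after irradiation and between 7.38 and 7.48 without it. Array 1 held the highest value of 7 of the 8 markers in irradiated KO and of 8 of 8 in untreated KO cells. Ccr2, a chemokine receptor of monocytes, was at 7.63, 5.43 and 4.96 on the irradiated KO arrays 1, 2 and 3, and Cd14 at 8.84, 7.03 and 7.27. B cell markers (7 tested of 9) were high on irradiated KO array 3 at 7.86, where arrays 1 and 2 had 5.95 and 6.23, and on untreated KO array 2 at 7.68, where arrays 1 and 3 had 6.24 and 6.30. Granulocyte markers (7 tested of 8) were highest on array 1 in both KO groups, at 7.40 and 7.28, and highest on array 3 in both WT groups, at 7.79 and 8.23. Dendritic markers (8 tested of 9) averaged between 6.63 and 6.98 over all 12 arrays. In irradiated KO cells these 8 markers had differences from -0.96 to 0.99 with a median of 0.01, and 1 rose and 1 fell by limma. Over all genes tested, 2.74% rose there. Itgax, the gene of CD11c, rose in irradiated KO cells by 0.99 (limma adjusted p = 0.0386) and by 1.29 without both KO arrays numbered 1 (limma adjusted p = 0.0269). In irradiated WT cells Itgax had 0.79 (limma adjusted p = 0.103), and the KO and WT differences were 0.20 apart (SE 0.36). Flt3, a cytokine receptor also found on progenitors, fell in both genotypes. Of 10 tested LSK and stem cell markers (of 12 listed), 2 fell in irradiated KO and 1 in irradiated WT cells, and 0 rose. These were Flt3 in both genotypes and Meis1 in KO cells, by 0.74 (limma adjusted p = 0.0138). Differences of the list ran from -0.96 to 0.77 in KO and from -1.41 to 0.84 in WT cells. Over all genes, 5.94% passed in either direction in KO and 4.83% in WT cells. Of 5 tested erythroid markers (of 7 listed), 3 fell in irradiated KO cells by limma, and 2 without both KO arrays numbered 1, where 5.94% of all genes passed in either direction. In irradiated WT cells 0 of the 5 passed. All 5 were negative in both genotypes, with a median of -0.67 in KO and -0.47 in WT cells, and 0 passed in the interaction (limma adjusted p = 1 for each).

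Cd80 was far brighter in irradiated cells of both genotypes. Its log2 values were 10.71, 9.18 and 9.47 in irradiated KO cells, against 7.81, 6.95 and 6.21 in untreated KO cells. In WT cells they were 9.65, 9.21 and 9.22 after irradiation, against 7.57, 7.07 and 6.42 without it. All 6 irradiated arrays lay above all 6 untreated ones, and the lowest irradiated value was 9.18 where the highest untreated value was 7.81. The difference was 2.79 in KO cells (SE 0.44, 95% confidence interval 1.85 to 3.74, 6.94-fold) and 2.34 in WT cells (SE 0.44, 1.39 to 3.29, 5.07-fold). By size it ranked 7 in KO and 16 in WT cells among the rises of the 15348 genes tested. In bulk samples such as these, a change in the number of cells that carry a transcript and a change in its level per cell cannot be told apart.

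**Figure D1:**
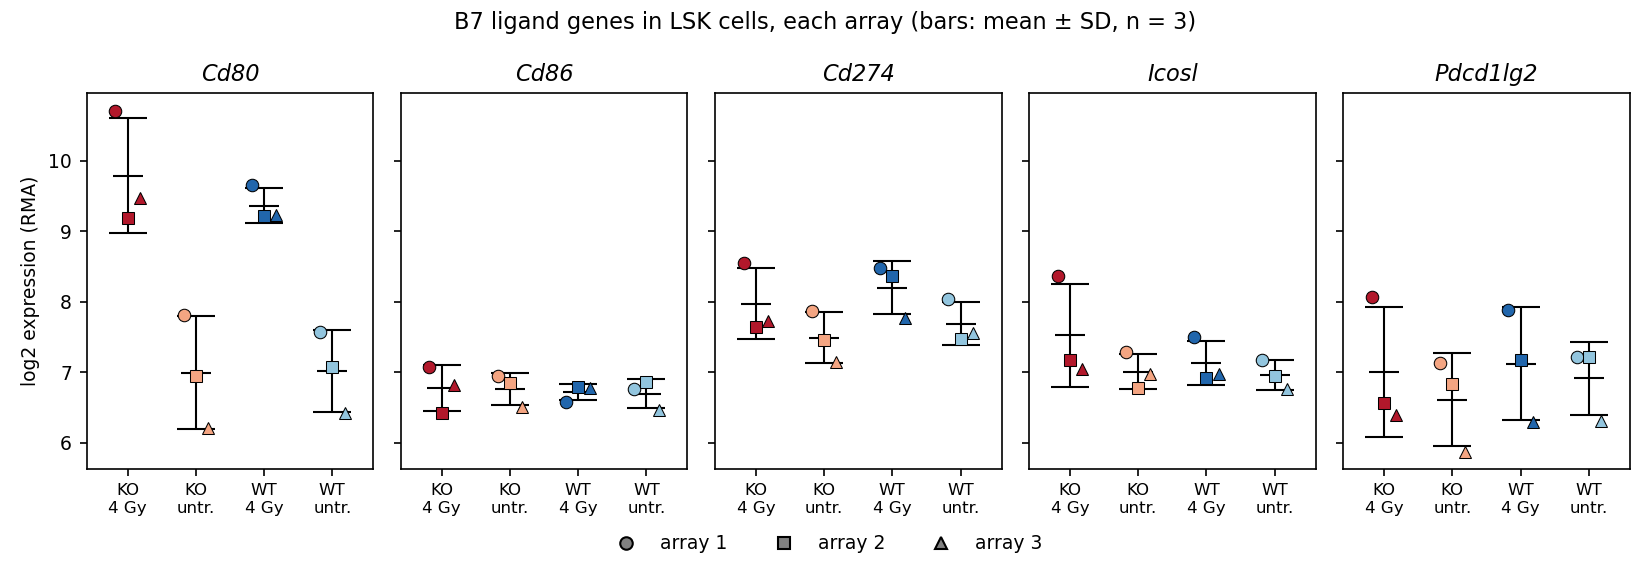
Log2 expression of the 5 B7 ligand genes on each of the 12 arrays, by group, with symbols for the array number and bars for mean ± SD (n = 3). Cd80 lies between 9.18 and 10.71 on irradiated arrays and between 6.21 and 7.81 on untreated arrays, while the groups of the other 4 genes overlap.

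Between irradiated and untreated WT arrays of like number, which deviated together, Cd80 differed by 2.07, 2.14 and 2.80. Without both KO arrays numbered 1, where monocyte markers were high, the KO difference was 2.74 (SE 0.34), a setting chosen after seeing the data. Cd80 lay 0.92 above its group mean on irradiated KO array 1 and 0.82 above it on untreated KO array 1. Dropping both could therefore change the difference little, and the part of monocyte markers in it was not tested. With each array left out in turn, the difference lay between 2.33 (without irradiated KO array 1) and 3.20 (without untreated KO array 1) in KO cells and in WT cells between 2.04, when untreated array 3 was dropped, and 2.62, when untreated array 1 was.

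Cd86, the other ligand of CD28 and CTLA4, showed no such difference. Its values were 7.07, 6.43 and 6.83 in irradiated KO cells and 6.94, 6.84 and 6.51 in untreated KO cells. In WT cells they were 6.58, 6.80 and 6.78 after irradiation and 6.77, 6.86 and 6.47 without it. The groups overlapped, and the differences were 0.01 in KO cells (SE 0.17, 95% confidence interval -0.37 to 0.39) and 0.02 in WT cells (SE 0.17, -0.35 to 0.40).

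Cd274, which encodes PD-L1, was somewhat higher on average after irradiation, with overlapping groups. It had 8.55, 7.64 and 7.73 in irradiated KO cells and 7.87, 7.46 and 7.14 in untreated KO cells. It had 8.48, 8.36 and 7.77 in irradiated WT cells and 8.04, 7.47 and 7.55 in untreated WT cells. The differences were 0.48 in KO cells (SE 0.27, 95% confidence interval -0.11 to 1.08) and 0.51 in WT cells (SE 0.27, -0.08 to 1.10). Both intervals include 0 and come from the fit without pairing of arrays. With arrays of like number in a genotype fitted as blocks, the SE of either difference was 0.15. The number did not pair the KO arrays throughout. Between WT arrays of like number the irradiated one was higher by 0.44, 0.88 and 0.21. Without irradiated KO array 1 the KO difference was 0.19, and without both KO arrays numbered 1 it was 0.38.

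Pdcd1lg2, which encodes PD-L2, had 8.07, 6.56 and 6.39 in irradiated KO cells and 7.13, 6.84 and 5.88 in untreated KO cells. It had 7.89, 7.18 and 6.30 in irradiated WT cells and 7.21, 7.21 and 6.31 in untreated WT cells. Spread within groups, with ranges of 0.90 to 1.68, was larger than the differences of 0.39 in KO cells (SE 0.49, 95% confidence interval -0.68 to 1.47) and 0.21 in WT cells (SE 0.49, -0.87 to 1.28). Without both KO arrays numbered 1 the KO difference was 0.12. The sign turned in KO cells without irradiated KO array 1 (-0.14) and in WT cells without irradiated WT array 1 (-0.18).

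Icosl, the gene of the ICOS ligand, had 8.36, 7.17 and 7.04 in irradiated KO cells and 7.28, 6.78 and 6.97 in untreated KO cells. It had 7.50, 6.92 and 6.97 in irradiated WT cells and 7.18, 6.94 and 6.77 in untreated WT cells. The differences were 0.51 in KO cells (SE 0.30, 95% confidence interval -0.13 to 1.16) and 0.17 in WT cells (SE 0.30, -0.47 to 0.81). Irradiated KO array 1 stood above the other 11 arrays. Without it the KO difference was 0.09, and without both KO arrays numbered 1 it was 0.23. Without irradiated WT array 1 the WT difference was -0.01.

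All 5 differences were positive in either genotype, with medians of 0.48 in KO and 0.21 in WT cells, where the medians over all genes tested were -0.02 and 0.00. Cd80 was the 1 gene of the 5 whose groups did not overlap, which held in this direction for 10.2% of all genes in KO and 11.4% in WT cells. These counts describe a set chosen for Cd80, and nothing is read from them.

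**Figure D2:**
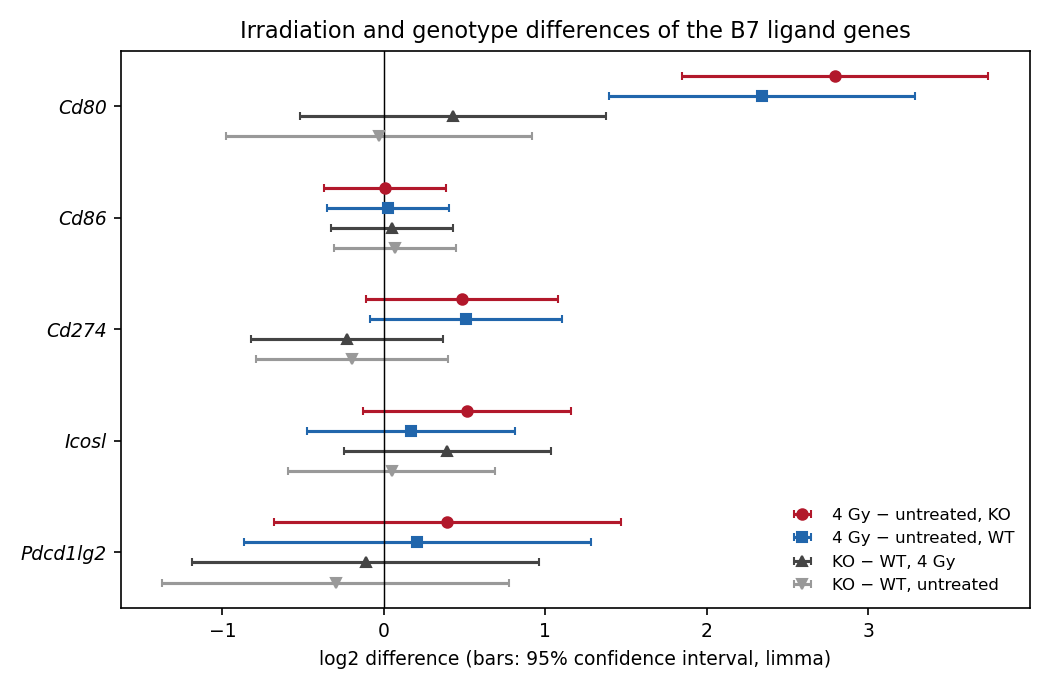
Log2 differences of the 5 genes with 95% confidence intervals from the limma fit without pairing of arrays. They are for irradiation in KO and WT cells and for KO minus WT cells at either treatment. The intervals of Cd80 for irradiation start at 1.85 in KO and 1.39 in WT cells, and all other intervals include 0.

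Loss of NIPA gave no detectable difference in any of the 5 genes. In irradiated cells Cd80 averaged 9.79 ± 0.81 in KO and 9.36 ± 0.25 in WT (SD, n = 3 each), a difference of 0.43 (SE 0.44, 95% confidence interval -0.52 to 1.37, limma adjusted p = 0.999). In untreated cells it averaged 6.99 ± 0.80 in KO and 7.02 ± 0.58 in WT (SD, n = 3 each), a difference of -0.03 (SE 0.44, -0.98 to 0.92, limma adjusted p = 1). Ordered by mean, irradiated KO was followed by irradiated WT, untreated WT and untreated KO, and the KO and WT arrays overlapped at either treatment. The excess of irradiated KO over irradiated WT rested on irradiated KO array 1, and without it the difference was -0.03.

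In irradiated cells, Cd274 averaged 7.97 ± 0.50 in KO and 8.20 ± 0.38 in WT (SD, n = 3 each), Icosl 7.53 ± 0.73 and 7.13 ± 0.32, Pdcd1lg2 7.01 ± 0.92 and 7.12 ± 0.80, and Cd86 6.77 ± 0.33 and 6.72 ± 0.12. In untreated cells, Cd274 averaged 7.49 ± 0.36 in KO and 7.69 ± 0.31 in WT (SD, n = 3 each), Icosl 7.01 ± 0.25 and 6.96 ± 0.21, Pdcd1lg2 6.62 ± 0.65 and 6.91 ± 0.52, and Cd86 6.77 ± 0.23 and 6.70 ± 0.21. No pair of these means lay apart by more than the spread, and KO and WT arrays overlapped for each of the 5 genes, where 6.4% of all genes did not overlap after irradiation and 7.96% without it. KO minus WT lay between -0.23 and 0.39 after irradiation and between -0.30 and 0.07 without it for these 4 genes. The farthest bound of the 95% confidence intervals was -1.37 (log2) for Pdcd1lg2, 1.04 for Icosl, -0.82 for Cd274 and 0.45 for Cd86.

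The irradiation differences of KO and WT cells were compared directly as an interaction. KO minus WT was 0.45 for Cd80 (SE 0.62, 95% confidence interval -0.89 to 1.79), 0.35 for Icosl (SE 0.42), 0.19 for Pdcd1lg2 (SE 0.70), -0.03 for Cd274 (SE 0.39) and -0.01 for Cd86 (SE 0.25), each with limma adjusted p = 1. Of the 5 genes, 0 passed in the genotype contrasts and the interaction by limma, and the smallest unadjusted p was 0.207, for Icosl in irradiated cells. Over all genes, 0.00652% passed in either genotype contrast, which is Zc3hc1 alone, and 0% in the interaction. For the interaction 235 genes had an unadjusted p under 0.05.

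The spread within groups was itself shared by 4 of the 5 genes. Cd80, Cd274, Icosl and Pdcd1lg2 were highest on the array numbered 1 in all 4 groups, a pattern seen in 4.1% of the genes tested. On irradiated KO array 1 they lay 0.92, 0.58, 0.84 and 1.06 above the group mean, and on irradiated WT array 1 they lay 0.29, 0.28, 0.36 and 0.77 above it. Cd86 was highest on array 1 in both KO groups and on array 2 in both WT groups. Pdcd1lg2 was lowest on array 3 in all 4 groups, as were 2.89% of the genes tested. Monocyte and granulocyte markers were high on both KO arrays numbered 1, and their part in the KO spread was not tested. In irradiated WT cells monocyte markers averaged 7.47 on array 1, the highest of that group, against 7.28 and 7.30 on arrays 2 and 3. In untreated WT cells they averaged 7.38 on array 1, the lowest, against 7.48 on each of arrays 2 and 3. Granulocyte markers averaged 6.42 and 6.17 on the irradiated and untreated WT arrays numbered 1, the lowest of either group.

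**Figure D3:**
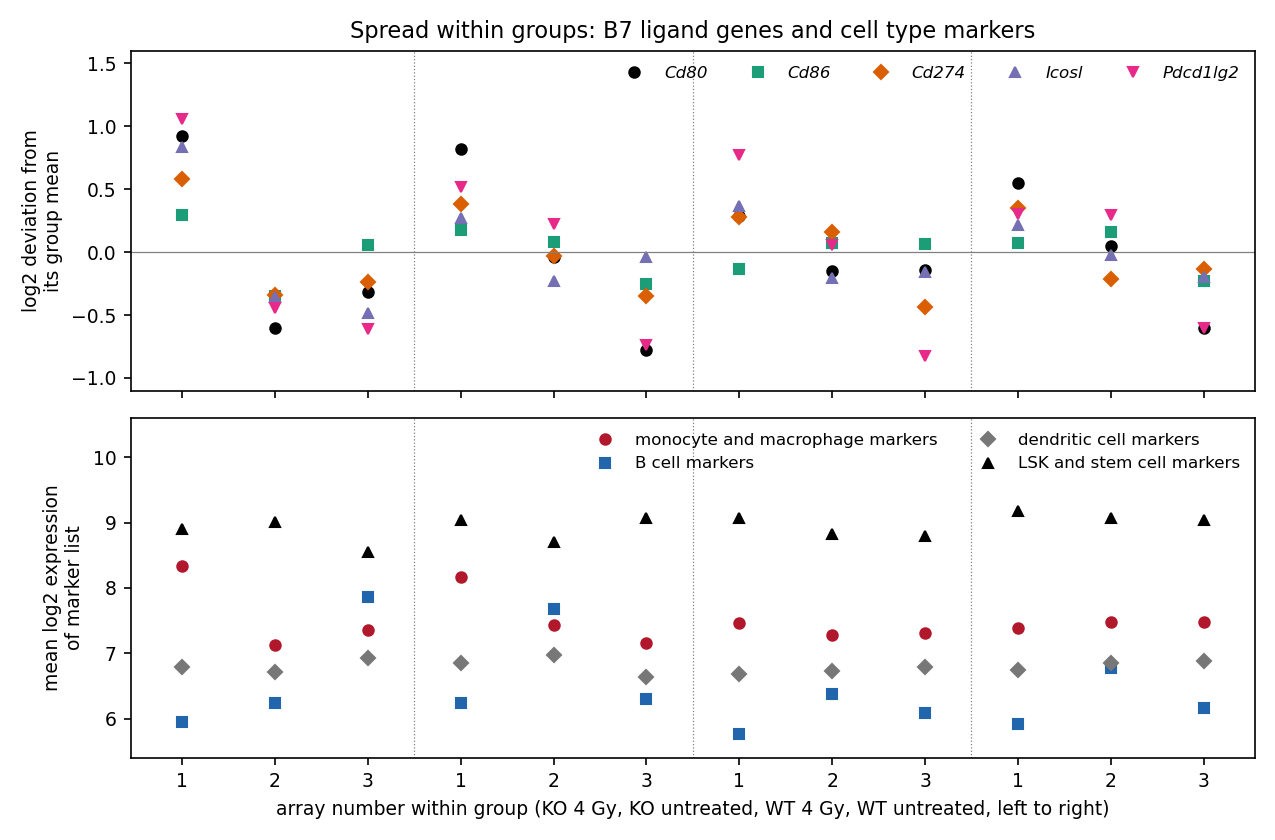
Above, the log2 deviation of each B7 ligand gene from its group mean on every array. Below, the mean log2 level of 4 marker lists, in which monocyte and macrophage markers reach 8.33 and 8.17 on the KO arrays numbered 1 and B cell markers 7.86 and 7.68 on irradiated KO array 3 and untreated KO array 2.

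The profile of Cd80 over the 12 arrays was most like those of Slc4a11, Fas, Dcxr, Lacc1 and Ano1. Likeness was the root mean square difference between 2 genes after each was centred on its mean over the 12 arrays, and it was 0.50, 0.51, 0.52, 0.53 and 0.57 (log2) for these 5. Fas, the death receptor and a known p53 target, had 8.19, 8.19 and 8.48 in irradiated KO cells and 6.01, 5.78 and 5.07 in untreated KO cells. In WT cells Fas had 7.76, 8.47 and 8.03 after irradiation and 6.01, 5.94 and 5.77 without it. Slc4a11, a membrane transporter, averaged 9.15 ± 0.32 in irradiated and 6.05 ± 0.08 in untreated KO cells and 8.88 ± 0.15 in irradiated and 5.89 ± 0.30 in untreated WT cells (SD, n = 3 each). Dcxr is a carbonyl reductase, Lacc1 a regulator of macrophage metabolism and Ano1 a chloride channel. Irradiation differences of the 5 genes lay between 2.20 and 3.09 in KO cells and between 2.18 and 2.99 in WT cells, on either side of those of Cd80. Because the measure spans irradiated and untreated arrays, it picks genes whose irradiation differences are like that of Cd80. Their closeness to Cd80 is thus no separate result.

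**Figure D4:**
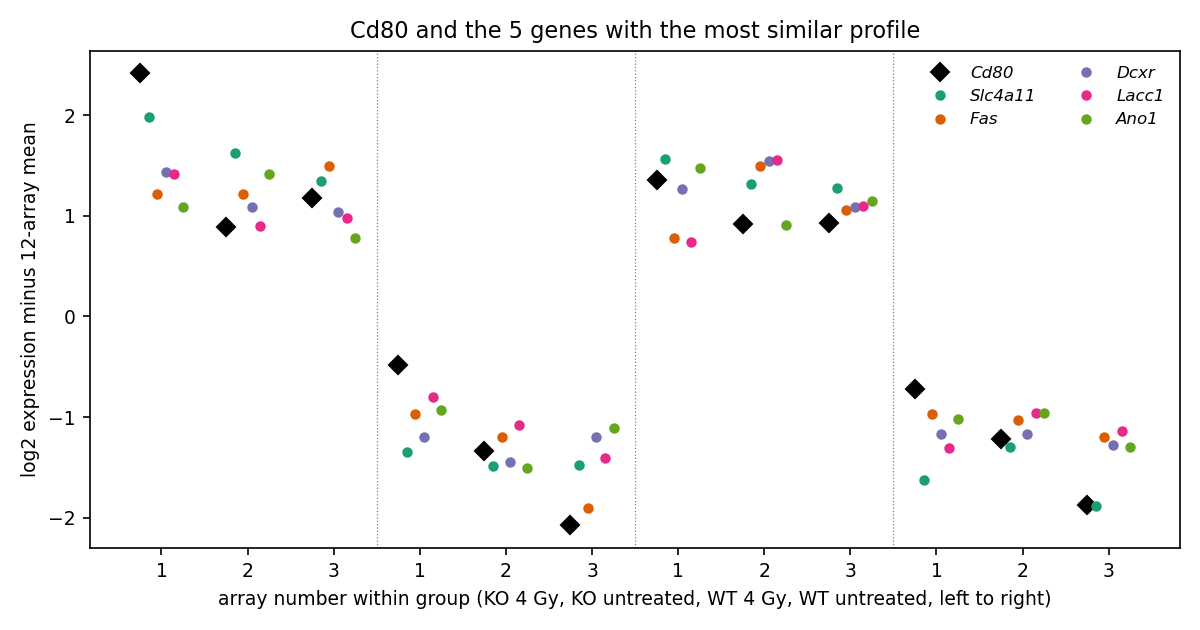
Log2 expression of Cd80 and of the 5 genes most like it, each minus its 12-array mean, on every array. All 6 genes lie above their mean on the 6 irradiated arrays and below it on the 6 untreated arrays.

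The other variable ligands had other nearest genes. Nearest to Cd274 were the tetraspanin Cd82, at a root mean square difference of 0.17, the galactosyltransferase B4galt1 at 0.17 and the ceramide synthesis gene Degs1 at 0.18. Nearest to Icosl were Tnfsf8, which encodes the CD30 ligand, at 0.14, the innate receptor gene Tlr2 at 0.17 and the interferon receptor gene Ifnar1 at 0.18. Nearest to Pdcd1lg2 were Gal, the precursor of galanin, at 0.28, Magee2 at 0.31 and Timp3, an inhibitor of matrix proteases, at 0.31. Tlr2 averaged 8.16 ± 0.73 in irradiated and 7.61 ± 0.43 in untreated KO cells and 7.88 ± 0.35 in irradiated and 7.62 ± 0.41 in untreated WT cells (SD, n = 3 each). Cd86, with an SD of 0.20 over the 12 arrays, varied too little for such a comparison to be made (limit 0.41, the 90th percentile of the genes tested).

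Neighbours of the ligand genes on the chromosome mostly stayed short of the test. Cd80 and Cd86 lie on chromosome 16, apart from each other, and Timmdc1, the gene next to Cd80, had differences of -0.10 in irradiated KO and -0.07 in irradiated WT cells (limma adjusted p = 0.833 and 0.871). Casr, next to Cd86, had -0.08 and 0.10. Cd274 and Pdcd1lg2 are next to each other on chromosome 19, between Plgrkt and Ric1. Ric1, a gene of vesicle traffic, rose by 0.53 in irradiated WT cells (limma adjusted p = 0.0211) and had 0.38 in irradiated KO cells (adjusted p = 0.0788). The WT call of Ric1 was lost without irradiated WT array 1 or 3 or untreated WT array 2. Plgrkt had 0.12 in KO and 0.05 in WT cells. Dnmt3l and Gatd3a, on either side of Icosl on chromosome 10, had 0.20 and -0.42 in KO and 0.34 and -0.31 in WT cells, short of the test.

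Other B7 family ligands and the receptors showed no change past the test. Of 7 other B7 family genes 6 were tested, and 0 passed in either genotype, with differences from -0.24 to 0.02 in KO cells and from -0.38 to 0.22 in WT cells. The list had medians of -0.12 in KO and -0.07 in WT cells. Closest to the threshold over all contrasts were the butyrophilin genes Btn1a1 (0.22 in irradiated WT cells, limma adjusted p = 0.289) and Btnl2, and Ildr2. Of the 6 receptor genes 5 were tested, and 0 passed, with medians of 0.07 in KO and -0.20 in WT cells. Pdcd1, the gene of PD-1, averaged 5.26 ± 0.44 in irradiated and 5.58 ± 0.12 in untreated KO cells and 5.57 ± 0.44 in irradiated and 5.91 ± 0.31 in untreated WT cells (SD, n = 3 each). Rgmb, a receptor of PD-L2, had 0.19 in KO and -0.10 in WT cells, the inhibitory receptor gene Btla -0.25 and -0.28, and Ctla4 lay below the brightness limit.

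Among the TNF superfamily costimulatory ligands and Cd40, 1 of 6 tested genes (of 9 listed) rose in either genotype, with medians of 0.49 in KO and 0.41 in WT cells. Over all genes tested, 2.74% rose in KO and 2.13% in WT cells. That gene was Tnfsf4, the ligand of OX40, which averaged 11.25 ± 0.68 in irradiated and 7.65 ± 0.69 in untreated KO cells and 10.90 ± 1.00 in irradiated and 7.59 ± 0.75 in untreated WT cells (SD, n = 3 each). Its difference was 3.61 in KO (limma adjusted p = 0.00202) and 3.31 in WT cells (adjusted p = 0.0034). Tnfsf14 had 0.67 in KO (limma adjusted p = 0.0738) and 0.42 in WT cells (adjusted p = 0.276). Tnfsf9, the ligand of 4-1BB, had 0.54 and 0.42, also short of the test.

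Of the antigen presentation genes, 1 passed the test, in WT cells, where 4.83% of all genes (742) passed in either direction. With arrays of like number in a genotype fitted as blocks, 1228 genes passed in WT cells. Of 11 tested MHC class I presentation genes (of 12 listed) 0 passed, with medians of -0.01 in KO and -0.06 in WT cells. The immunoproteasome subunit genes Psmb8 and Psmb9 had -0.55 and -0.71 in KO cells (limma adjusted p = 0.0698 and 0.065) and -0.56 and -0.75 in WT cells (adjusted p = 0.0696 and 0.0562). Calr, a chaperone of class I loading, had 0.46 in KO and 0.32 in WT cells. Of 7 tested class II genes (of 8 listed) 0 passed in KO cells, and in WT cells H2-DMa, which helps load class II molecules, fell by 0.70 (limma adjusted p = 0.0234). That call was lost without any of the 3 irradiated WT arrays or without untreated WT array 1 or 2. H2-DMb1 had -0.25 and -0.48 in KO and WT cells, and Ciita, the master regulator of class II genes, -0.27 and -0.28. The list had medians of 0.04 in KO and -0.28 in WT cells.

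Of 21 tested regulators of B7 ligands (of 25 listed), 2 rose and 1 fell in either genotype, where 5.94% of all genes passed in either direction in KO and 4.83% in WT cells. The list had medians of -0.09 in KO and -0.04 in WT cells. The NF-kB subunit gene Nfkb2 averaged 9.96 ± 0.09 in irradiated and 8.81 ± 0.16 in untreated KO cells and 10.04 ± 0.16 in irradiated and 9.13 ± 0.16 in untreated WT cells (SD, n = 3 each), with limma adjusted p = 0.000325 in KO and 0.00151 in WT cells. Relb, the gene of its partner, averaged 8.58 ± 0.15 in irradiated and 7.55 ± 0.23 in untreated KO cells and 8.55 ± 0.19 in irradiated and 7.82 ± 0.07 in untreated WT cells (SD, n = 3 each), with limma adjusted p = 0.00122 and 0.0103. Atm, the kinase that responds to DNA breaks, fell by 0.97 in KO and by 0.74 in WT cells (limma adjusted p = 0.000629 and 0.0037). The WT call of Relb was lost without untreated WT array 3 (limma adjusted p = 0.0555). Across the 6 lists 56 of 67 genes were tested, and 0 passed in the genotype contrasts or the interaction by limma.

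**Figure D5:**
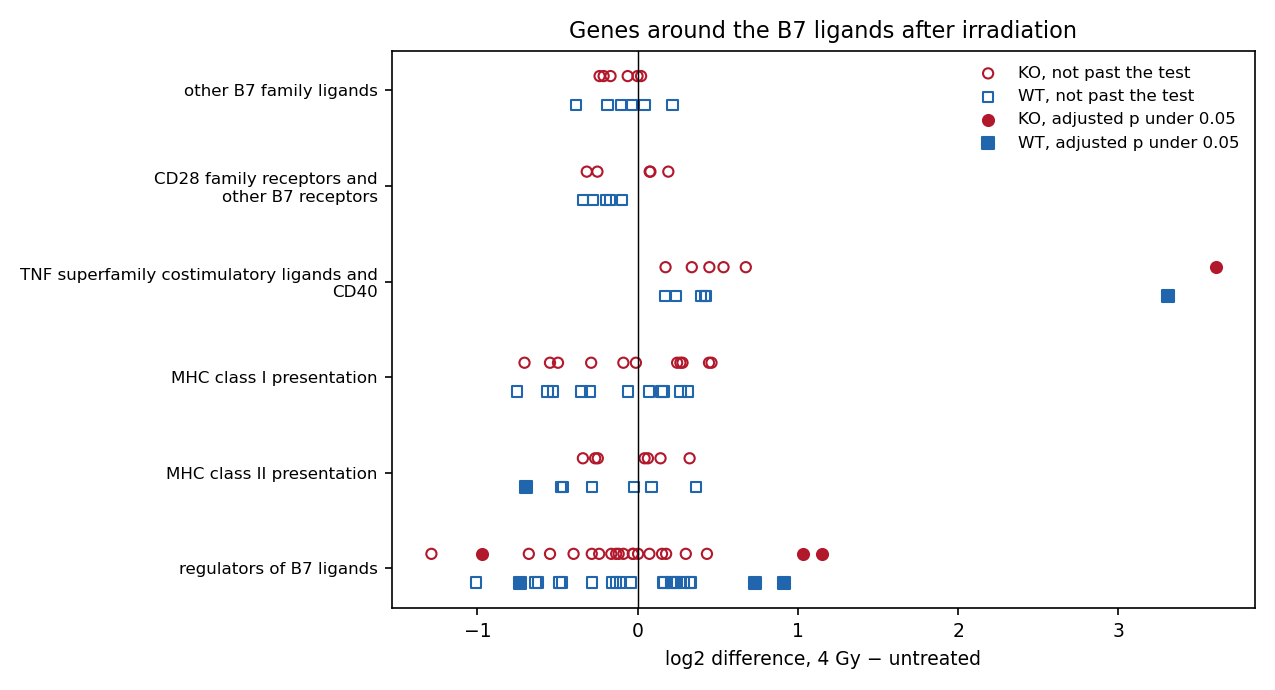
Log2 difference, irradiated minus untreated, of each tested gene of 6 lists around the B7 ligands, in KO (circles) and WT cells (squares). Filled symbols passed the limma test: Tnfsf4, Nfkb2 and Relb above 0 and Atm below it in both genotypes, and H2-DMa below 0 in WT cells.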

How the data were processed

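Expression was measured with 12 Affymetrix arrays in 4 groups of 3, with group and number read from each title. The deposited log2 values, 1 per array and probe set, were made by the authors with the R package oligo and RMA, per the submitters' processing notes. The sources used here give no versions or build. Probe sets with exactly 1 symbol in the platform annotation (23521 of 41345) were used, with symbols updated through RefSeq (23328 matched), and the brightest probe set of a gene was taken. Genes above the 40th percentile of the table (5.29) on at least 3 arrays were tested, which left 15348.

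Differences were fitted with limma 3.58.1 (lmFit and eBayes) in R 4.3.3 in a single fit over all arrays, and p-values are two-sided and Benjamini-Hochberg adjusted over all genes tested, with a threshold of 0.05. The fit was tested on simulated data with independent noise on each array, so arrays that deviate together were not covered. The number of arrays limits the precision: an exact test of 3 against 3 cannot go below p = 0.1. Levels of different probe sets are not comparable, so no gene's level was set against another's.

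Members, lists and the rule for named genes were chosen with earlier results of these data known. The rule took list genes past the test, otherwise the 3 of a list with the smallest p, the genes nearest in profile and the chromosomal neighbours. Deviations from group means of same-numbered arrays correlated at 0.42 to 0.49 between irradiated and untreated WT groups, and at 0.10 to 0.23 between untreated KO and untreated WT groups. All of these exceed 0.1, the limit set for pairing, and not all same-numbered arrays of the other groups did. Arrays of unlike number correlated at -0.37 to -0.08 between irradiated and untreated WT groups, so there the numbers pair the arrays. Between untreated KO and untreated WT groups, KO array 3 with WT array 1 reached 0.14, above the 0.10 of the arrays numbered 3. For those groups the number does not settle which arrays pair. Alternatives were other filters, scalings, probe set summaries and variance priors, the compared arrays alone, replicate blocks and each array left out.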

Additional observations from a re-analysis of the deposited data

How the results depend on the processing

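With 3 arrays a group, the confidence intervals given above are wide, and they come from the fit without replicate blocks. The signs of the small genotype differences are not stable. Of the 5 genes, 0 passed in the 415 genotype and interaction tests over all settings, with a lowest limma adjusted p of 0.636. The replicate number as a block over all 12 arrays changed no genotype or interaction call of the 5 genes and left 1 gene called between untreated KO and untreated WT cells, with an SE of 0.23 for Cd80 (1224 genes called in KO, 1076 in WT cells). With a replicate block within genotype, 1390 genes were called in KO and 1228 in WT cells. The SE of Cd80 was then 0.20 for irradiation in either genotype and 0.29 for the interaction, against 0.44 and 0.62 without blocks. Deviations of irradiated and untreated KO arrays correlated at 0.47 for those numbered 1, at -0.24 for those numbered 2 and at -0.12 for those numbered 3. The number thus matched the KO arrays numbered 1 and did not pair the KO groups throughout. Irradiated KO array 2 deviated most like untreated KO array 3 (0.52) and irradiated KO array 3 most like untreated KO array 2 (0.44). Same-numbered irradiated KO and irradiated WT arrays correlated at -0.29 to 0.34 and were not taken as pairs. Fitting only the arrays compared gave 557 calls in KO and 729 in WT cells, against 911 and 742 in the main fit, and the cause was not tested. The genotype average called 2 genes with array medians subtracted, 2 with the mean of probe sets and 4 with the replicate block.

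In the interaction the sign turned for Cd86 with array medians subtracted (0.026) or cyclic loess (0.025) and for Cd274 with array medians subtracted (0.014), and the cause was not tested. Without both KO arrays numbered 1, a setting chosen after seeing the data, KO minus WT turned to -0.035 in irradiated cells and -0.24 on average for Cd80. For Cd86 it turned to -0.022 in untreated and -0.096 in irradiated cells and -0.059 on average, and for Icosl to -0.087, -0.026 and -0.056. The interaction of Pdcd1lg2 turned to -0.087.

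Leaving out each array in turn gave 392 to 1573 calls in KO (lowest without untreated KO array 2, highest without irradiated KO array 1) and 314 to 1040 in WT cells (lowest without untreated WT array 3, highest without irradiated KO array 1). KO minus WT for Cd80 then ran -0.44 to 0.36 in untreated and -0.035 to 0.73 in irradiated cells and -0.032 to 0.39 on average, with an interaction of -0.0063 to 0.86. For Cd86 these were -0.050 to 0.19, -0.096 to 0.23, -0.015 to 0.15 and -0.16 to 0.16. For Icosl they were -0.087 to 0.16 in untreated and -0.026 to 0.64 in irradiated cells, with an interaction of -0.074 to 0.59. For Pdcd1lg2 they were -0.60 to 0.071, -0.64 to 0.27 and -0.34 to 0.57, and the interaction of Cd274 ran -0.32 to 0.16.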
